A study of Rattus norvegicus with 8 samples.

Results

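The comparison of DOCA-EVs with DOCA renal cortex covered 219 microRNAs (miRNAs), those that the scanner software called detected on both arrays of at least 1 of these groups, out of 758 rat miRNAs on the array and 242 detected in any group of the study. The study profiled miRNAs of male rat kidney cortex with 8 one-colour arrays, 2 per group, 9 weeks after surgery. DOCA-EVs rats had 1 kidney removed, ate chow with 1.5% sodium, received deoxycorticosterone acetate, a mineralocorticoid, under the skin at 8 mg/kg 2 times a week in soybean oil, and from week 2 had a weekly intravenous dose of extracellular vesicles shed by mesenchymal cells of adipose tissue. DOCA rats had the same surgery, diet and hormone, with the vesicle-free vehicle given into the vein. UNX rats had the nephrectomy with 0.50% sodium and soybean oil alone, and SHAM rats had sham surgery with 0.50% sodium; they are given only to show where a level stood without the hormone and salt. The comparison therefore addresses what the vesicles added in rats that all had nephrectomy, high sodium and the mineralocorticoid. The labels do not say whether the 2 arrays of a group came from separate rats, so p-values measure the spread between arrays.

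Deoxycorticosterone acetate with a high-sodium diet is a standard rat model of salt-sensitive hypertension, in which the kidney develops inflammation and fibrosis. A miRNA guides the Argonaute protein to messenger RNAs, chiefly through its seed, bases 2 to 8 counted from the 5′ end, and lowers their translation or stability. Tubule epithelium is rich in the miR-200, miR-30, miR-192 and miR-10 families, whereas miR-21 is known for its abundance in injured and fibrotic kidney and miR-142 and miR-223 mark blood-derived cells. Vesicles of mesenchymal cells carry miRNAs of their own, so a miRNA measured in treated cortex may be of the kidney or of the vesicles, and these sources cannot be told apart on the arrays. In whole cortex, fewer cells of a type and less RNA per cell cannot be told apart either.

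The mature sequences of the miRNAs on which the results turn are given below as listed by RefSeq for the rat build GRCr8, with the seed in capitals; 197 of the 219 miRNAs had such an entry. The first set holds the 4 members with the smallest p among positive differences (miR-200c-3p, miR-210-3p, miR-31a-5p and miR-326-3p), together with miR-141-3p, the neighbour of miR-200c-3p in the genome, and miR-10a-5p of the tubule list. The seeds of these miRNAs all differ, that of miR-141-3p being AACACUG and that of miR-200c-3p AAUACUG.
miR-200c-3p: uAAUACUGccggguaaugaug
miR-141-3p: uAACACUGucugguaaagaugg
miR-210-3p: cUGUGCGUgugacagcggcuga
miR-31a-5p: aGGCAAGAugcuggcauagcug
miR-326-3p: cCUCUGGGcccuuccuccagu
miR-10a-5p: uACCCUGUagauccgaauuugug
The second set holds members with negative differences, shown because they are the smallest in p, the largest in size or the markers of injury and of blood cells.
miR-188-5p: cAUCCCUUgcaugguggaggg
miR-6216: gAUACACAgaggcaggaggagaa
miR-296-5p: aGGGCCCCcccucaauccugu
miR-494-3p: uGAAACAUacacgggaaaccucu
miR-21-5p: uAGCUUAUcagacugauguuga
miR-142-3p: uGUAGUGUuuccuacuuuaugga
miR-146b-5p: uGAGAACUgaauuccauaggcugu
miR-3473: uCUAGGGCuggagagauggcua
miR-3584-5p: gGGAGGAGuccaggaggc
The third set shows pairs with a shared seed, miR-221-3p with miR-222-3p (GCUACAU), miR-19a-3p with miR-19b-3p (GUGCAAA) and miR-132-3p with miR-212-3p (AACAGUC), since members of a pair can act on the same messages.
miR-221-3p: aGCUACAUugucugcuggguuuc
miR-222-3p: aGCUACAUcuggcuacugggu
miR-19a-3p: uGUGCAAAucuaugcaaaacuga
miR-19b-3p: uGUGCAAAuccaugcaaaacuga
miR-132-3p: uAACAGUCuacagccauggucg
miR-212-3p: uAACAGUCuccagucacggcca

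No miRNA passed the threshold in DOCA-EVs against DOCA renal cortex: limma gave 0 of 219 members at an adjusted p under 0.05, as it gave 0% of the 242 miRNAs tested. The smallest adjusted p was 0.069. At an unadjusted p under 0.05 there were 23 members, 8 higher and 15 lower in DOCA-EVs, and the same rule took 10.3% of the 242 miRNAs tested, 4.13% higher and 6.2% lower. Positive differences numbered 103 and negative ones 116, with 50.8% and 49.2% of the miRNAs tested on either side. Both DOCA-EVs arrays lay above both DOCA arrays for 29 members and below both for 27, which happened for 12.8% and 11.6% of all tested; the groups overlapped for the remaining 163. Values below are log2 normalized signal on each array, and differences are DOCA-EVs minus DOCA on the log2 scale with their SE. The median absolute difference was 0.16, and a 95% confidence interval reached a median of 0.46 to either side, so differences of the usual size were not detectable with 2 arrays per group.

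Most members were detected in both groups, with 216 members detected on both DOCA-EVs arrays, 204 on both DOCA arrays and 201 on all 4 arrays. The rule took in 15 members detected on both DOCA-EVs arrays and 1 DOCA array, and 3 the other way. Membership thus leaned towards miRNAs detected in DOCA-EVs. No member was detected on both arrays of 1 group and on neither array of the other. Signal was above background on all 4 arrays for 161 members and on none of the 4 for 5 (miR-3085, miR-327, miR-542-5p, miR-192-3p and miR-872-5p), which have no fold here. Replicates differed by a median of 0.33 in DOCA-EVs, 0.23 in DOCA, 0.16 in UNX and 0.05 in SHAM, and the fit shares 1 estimate of spread between these groups. The fit therefore tends to understate the spread of DOCA-EVs and DOCA, and the SE, intervals and p-values given here lean small. The hybridisation control dmr_3 read 1136 on DOCA-EVs replicate 2 and 1028 on DOCA replicate 2, against 2200 to 2401 on the 6 other arrays. The control dmr_6 was also low on these arrays, at 988 and 906, and both are called weakly hybridised below on these controls alone. Other measures set them apart. Control hur_1 read 46447 on DOCA-EVs replicate 2, the highest of all arrays, and 33456 on DOCA replicate 2, the lowest. The 75th percentile used for scaling was 451 and 282 in the same order. Both arrays lay in slide row 2, which held replicate 2 of every group, and each group filled its own slide column. Each difference can therefore be read within row 1, which leaves out both weak arrays, and within row 2, which consists of them; column and group cannot be told apart.

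**Figure D1:**
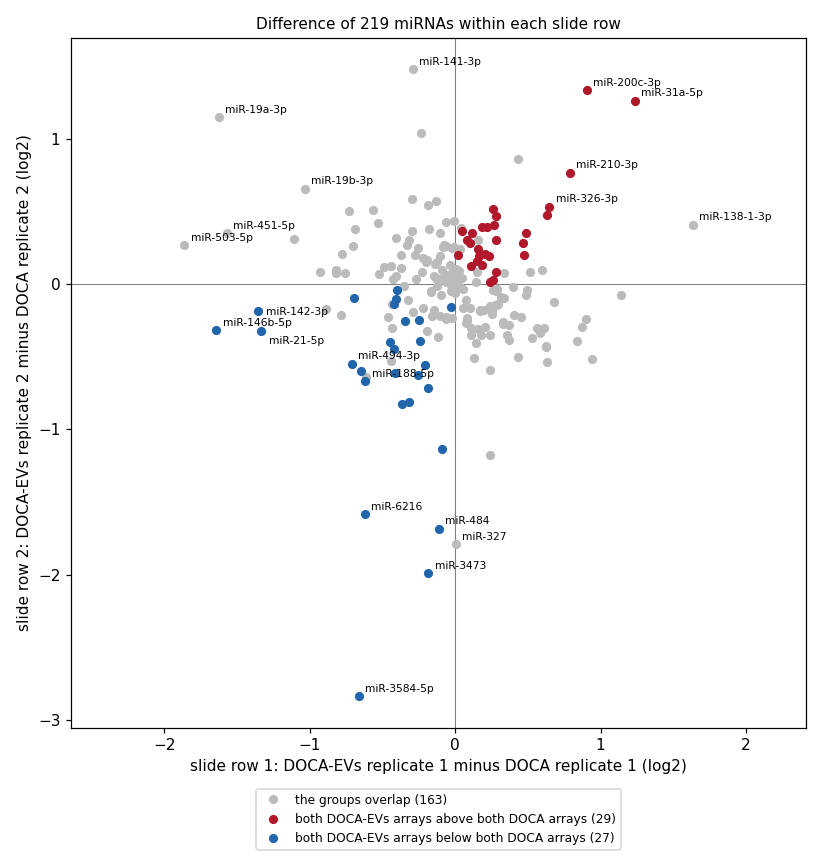
Difference between DOCA-EVs and DOCA within slide row 1 (x axis, log2) and slide row 2 (y axis, log2) for 219 miRNAs, each point being 1 miRNA. Red points (29) had both DOCA-EVs arrays above both DOCA arrays, blue points (27) below both, and grey points (163) overlapped. Few points follow the diagonal, and miR-31a-5p, miR-200c-3p and miR-210-3p lie far out in the upper right.

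The slide rows gave largely different answers. Across the 219 members the row 1 and row 2 differences had a Pearson correlation of 0.04 and a Spearman correlation of −0.04, given as a description of miRNAs that share arrays, scaling and labelling. The sign was the same in both rows for 98 members, 45 positive and 53 negative. The plot of the 2 rows shows the miRNAs that departed in both rows near its diagonal and those that departed in 1 row along its axes. The 24 miRNAs with the smallest p, 12 in each direction, had the same sign in both rows and no overlap between groups, which the choice by p favours.

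Among epithelial miRNAs, the miR-200 family, which represses the mesenchymal transcription factors Zeb1 and Zeb2, had positive differences in 6 of 6 members, and 0 passed the threshold. The count and the medians of the family are descriptions only. miR-200c-3p, the member with the largest difference, met the detection rule through DOCA-EVs alone, being detected on 1 DOCA array. The other members ran from 0.21 for miR-429 to 0.59 for miR-141-3p. With miR-200c-3p included, the family's median difference was 0.47, beside −0.00 over all 219 members. It lay 0.23 to 0.48 above that median under the 6 scalings. The median was 0.13 in row 1 and 0.55 in row 2, so within row 1 the family stood little above all members. miR-200c-3p read 5.40 and 5.46 in DOCA-EVs cortex and 4.50 and 4.13 in DOCA cortex, a difference of 1.12 ± 0.18 (limma adjusted p = 0.069). Both DOCA-EVs arrays were well above both DOCA arrays, of which 1 was above background. UNX cortex read 4.25 and 4.02 and SHAM cortex 4.50 and 4.30, near the DOCA level. Of these, 1 UNX array and no SHAM array was above background.

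miR-141-3p, transcribed beside miR-200c-3p, read 6.63 and 7.55 in DOCA-EVs and 6.93 and 6.07 in DOCA. Its difference of 0.59 ± 0.38 (adjusted p = 0.79) came from row 2, as the rows gave −0.29 and 1.48. The groups overlapped for miR-141-3p, unlike for its neighbour. miR-200b-3p, of the second miR-200 locus, read 10.27 and 10.37 in DOCA-EVs and 10.01 and 9.86 in DOCA (0.39 ± 0.12, adjusted p = 0.32). Its passenger arm miR-200b-5p was measured at least 1.35-fold higher in DOCA-EVs (adjusted p = 0.27), being above background on no DOCA array. That bound allows for background alone, and not for the spread between arrays or for other scalings. miR-200a-3p and miR-429 of that locus had differences of 0.22 ± 0.19 and 0.21 ± 0.15, with row values of −0.13 and 0.57 and of −0.01 and 0.43. In these 2 miRNAs the positive mean again came from row 2.

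The kidney tubule list showed no common direction. Of its 9 members 5 were positive and 4 negative, with a median of 0.08 and 0 past the threshold. Signal was above background on all 4 arrays for 8 of these 9, which are markers of the labelled tissue. miR-192-5p, abundant in proximal tubule, read 9.41 and 9.55 in DOCA-EVs and 9.52 and 9.77 in DOCA (−0.16 ± 0.14), and its cluster partner miR-194-5p read 8.72 and 9.11 in DOCA-EVs and 9.13 and 9.05 in DOCA (−0.17 ± 0.17). Both overlapped between groups. miR-10a-5p and miR-10b-5p, encoded within the Hox gene clusters, did not overlap: miR-10a-5p read 10.99 and 11.12 in DOCA-EVs and 10.72 and 10.72 in DOCA (0.34 ± 0.12, adjusted p = 0.44), and miR-10b-5p read 9.98 and 10.09 in DOCA-EVs and 9.79 and 9.70 in DOCA (0.29 ± 0.12, adjusted p = 0.47). The UNX arrays read 11.14 and 11.24 for miR-10a-5p and the SHAM arrays 10.89 and 10.96. The sequences of the pair are nearly alike, as are those within the let-7, miR-29 and miR-30 families, and how far their probes share signal was not tested.

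The miR-30 family, which in kidney is known for restraining connective tissue growth factor, had 7 positive and 2 negative members and a median of 0.18 (0.10 in row 1 and 0.28 in row 2). Neither of its leading passenger arms passed the threshold. miR-30a-3p read 7.71 and 7.85 in DOCA-EVs and 7.24 and 7.57 in DOCA (0.37 ± 0.16, adjusted p = 0.49), and miR-30c-2-3p read 5.77 and 5.76 in DOCA-EVs and 5.49 and 5.45 in DOCA (0.29 ± 0.11, adjusted p = 0.45). Both were higher on both DOCA-EVs arrays. Of the guide arms that share the seed GUAAACA, miR-30a-5p had 0.18 ± 0.17, with row values of −0.06 and 0.43, miR-30c-5p 0.23 ± 0.14 and miR-30e-5p 0.14 ± 0.22; miR-30d-5p had 0.06 ± 0.18.

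**Figure D2:**
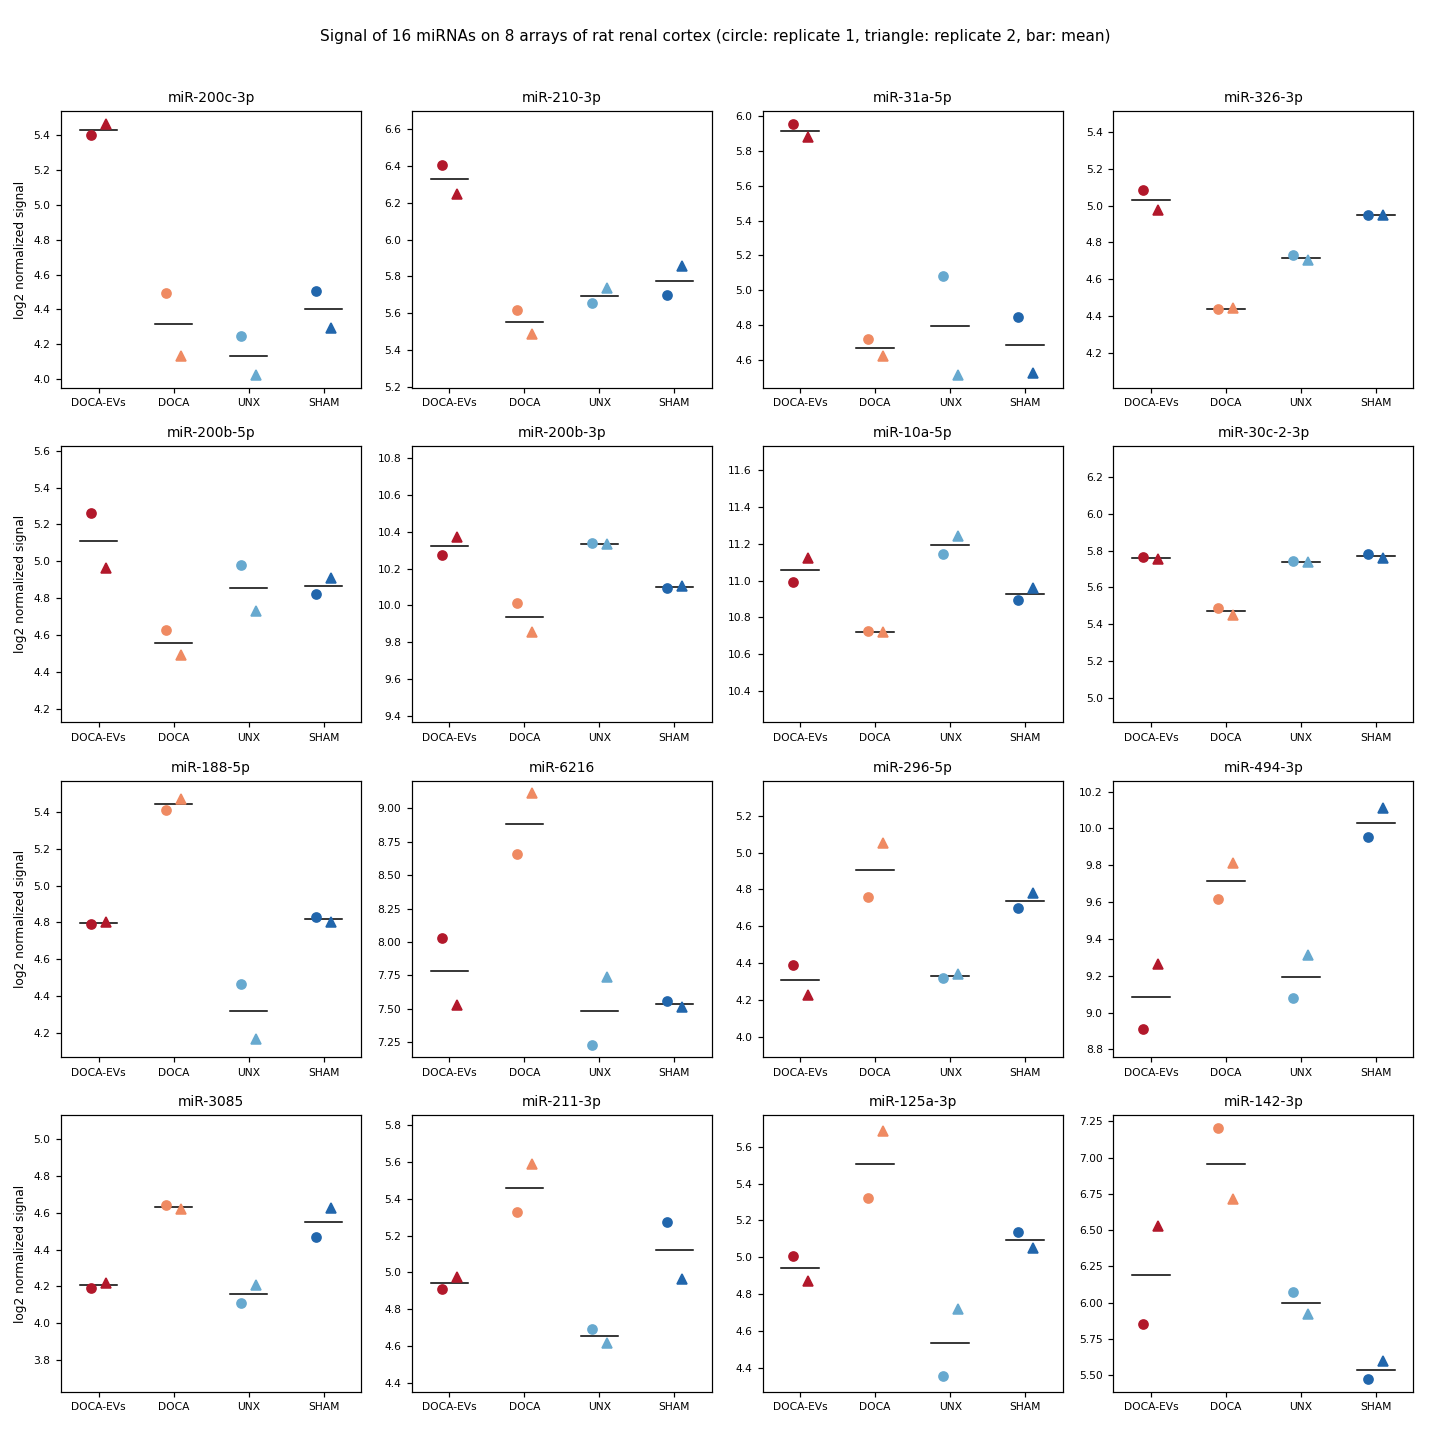
Log2 normalized signal (y axis) of 16 miRNAs on 8 arrays by group (x axis, DOCA-EVs, DOCA, UNX and SHAM), with circles for replicate 1, triangles for replicate 2 and bars for the mean of the 2 arrays; each panel has its own y range, and miR-3085 was not above background in DOCA-EVs or DOCA. The upper 8 panels hold the smallest p among positive differences, starting with miR-200c-3p at 5.40 and 5.46 in DOCA-EVs and 4.50 and 4.13 in DOCA, and the lower 8 the smallest p among negative ones.

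Outside the epithelial families, the smallest p among positive differences belonged to miR-210-3p, miR-31a-5p and miR-326-3p. miR-210-3p, a target of the hypoxia-inducible factor, read 6.41 and 6.25 in DOCA-EVs and 5.62 and 5.49 in DOCA (0.78 ± 0.13, adjusted p = 0.069). It stood at 5.66 and 5.73 in UNX and 5.70 and 5.86 in SHAM, so the DOCA-EVs arrays were the highest of the 8. The opposite arm of the same hairpin, miR-210-5p, read 6.68 and 5.79 in DOCA-EVs and 6.40 and 5.93 in DOCA, and its difference of 0.07 ± 0.35 was far smaller than that of miR-210-3p; the difference between arms was not tested. The other members of the hypoxia and p53 list, miR-34a-5p and miR-34b-5p, both known to be induced by p53, had −0.09 ± 0.12 and −0.29 ± 0.53, and the list's median of −0.09 turned positive under 4 of the other scalings and remained negative when the 75th percentile was taken over all probes.

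miR-31a-5p read 5.95 and 5.88 in DOCA-EVs and 4.72 and 4.62 in DOCA (1.25 ± 0.22, adjusted p = 0.069). It was above background on both DOCA-EVs arrays and on neither DOCA array, and the rows gave 1.24 and 1.26. Allowing for background alone, it was at least 2.28-fold higher. It read 5.08 and 4.51 in UNX and 4.84 and 4.52 in SHAM. miR-326-3p, which in mouse promotes the differentiation of inflammatory helper T cells, read 5.09 and 4.97 in DOCA-EVs and 4.44 and 4.44 in DOCA. By the same kind of bound it was at least 1.36-fold higher in DOCA-EVs (adjusted p = 0.097). Under other scalings miR-31a-5p passed the threshold with the median of detected probes, with quantile normalization and with normexp (its adjusted p over all alternatives ran from 0.022 to 0.71), miR-210-3p with the first of these and normexp (0.046 to 0.89) and miR-200c-3p with the first and second (0.042 to 0.71). With normexp the differences of miR-31a-5p, miR-210-3p and miR-200c-3p were smaller, at 0.24, 0.23 and 0.14. That setting adds an offset of 50 to each spot, which shrinks log2 differences of dim miRNAs such as these. Both miR-31a-5p and miR-326-3p sat close to the limit of detection in DOCA cortex.

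miR-31a-5p also belongs to a list of miRNAs that are abundant in vesicles of mesenchymal stromal cells, and that list as a whole stood near 0. Of its 19 members 11 were positive and 8 negative, with a median of 0.04 (0.00 in row 1 and 0.16 in row 2) and 0 past the threshold. Both DOCA-EVs arrays lay above both DOCA arrays for 7 of the 19 and below for 2, against 12.8% and 11.6% of all 242 miRNAs tested. Whether any of this signal was RNA of the injected vesicles was not tested. Within the list, miR-221-3p and miR-222-3p, a pair with 1 seed that represses the cell cycle inhibitor p27, had like values. miR-221-3p read 7.57 and 7.25 in DOCA-EVs and 7.10 and 7.05 in DOCA (0.34 ± 0.16, adjusted p = 0.60), and miR-222-3p read 5.09 and 5.07 in DOCA-EVs and 4.81 and 4.60 in DOCA (0.37 ± 0.24, adjusted p = 0.79). Neither overlapped between DOCA-EVs and DOCA, and both were lower in UNX (6.51 and 6.24 for miR-221-3p, 3.94 and 3.43 for miR-222-3p) and in SHAM (6.25 and 6.23 for miR-221-3p, 3.40 and 3.90 for miR-222-3p). miR-222-3p was above background on both DOCA-EVs arrays and 1 DOCA array, and on no UNX or SHAM array.

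Most other named members of the vesicle list differed by less than their replicates. miR-100-5p read 6.39 and 6.65 in DOCA-EVs and 6.17 and 6.26 in DOCA (0.31 ± 0.15, adjusted p = 0.60), without overlap. miR-23b-3p, at 0.15 ± 0.13, did not overlap either. miR-26a-5p had 0.12 ± 0.17, miR-22-3p −0.04 ± 0.16 and miR-125b-5p −0.00 ± 0.16. The lowest value of the list was that of miR-21-5p.

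The miR-29 and let-7 families had small positive medians. The miR-29 family, which represses collagen genes, had 3 positive members of 4 and a median of 0.19; miR-29b-3p read 11.45 and 11.87 in DOCA-EVs and 11.66 and 11.72 in DOCA (−0.03 ± 0.17), while miR-29a-3p had 0.21 ± 0.14, miR-29c-3p 0.18 ± 0.13 and miR-29c-5p 0.30 ± 0.19. The let-7 family, which shares the seed GAGGUAG in all 9 members and opposes Lin28 and Ras, had 8 positive members and a median of 0.08, with let-7a-5p at 0.13 ± 0.13, let-7b-5p at 0.19 ± 0.17, let-7c-5p at 0.18 ± 0.13 and let-7f-5p at 0.04 ± 0.12. Both families kept a positive median under each of the 6 scalings. Those that divide an array by 1 factor raised these medians or barely moved them, so they could not turn the sign. Relative to the median of all members, the miR-29 median lay 0.07 to 0.20 higher over the scalings and the let-7 median 0.04 to 0.09 higher.

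**Figure D3:**
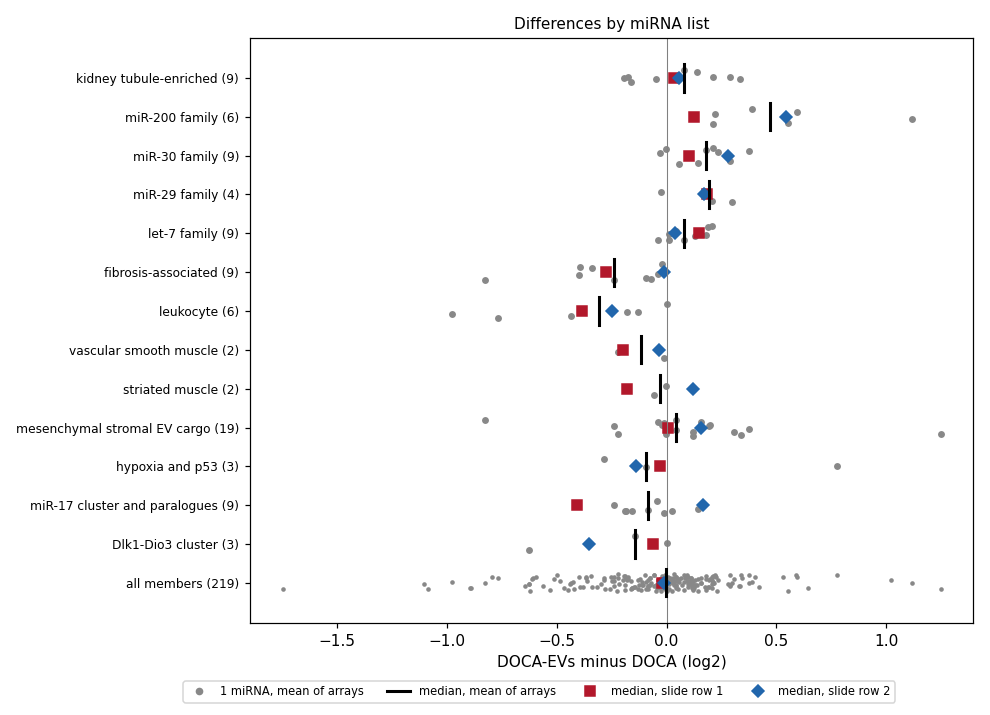
Difference between DOCA-EVs and DOCA (x axis, log2) by miRNA list (y axis, members in parentheses), with a grey point per miRNA, a black bar for the median, a red square for the median within slide row 1 and a blue diamond for the median within slide row 2. The miR-200 family lies to the right at 0.47, the leukocyte list to the left at −0.31 and the fibrosis-associated list at −0.24, the last 2 being positive with no scaling, while all 219 members centre on 0. The miR-200 median includes miR-200c-3p, which met the detection rule through DOCA-EVs alone.

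The fibrosis-associated list had negative differences in 9 of 9 members in the main setting, 0 of them past the threshold. Only miR-21-5p stayed negative under all 6 scalings. miR-34a-5p and miR-199a-3p turned positive under 4 of them and miR-22-3p under 3. The list's median was −0.24 (−0.27 in row 1 and −0.01 in row 2). It was positive with no scaling and −0.24 to −0.05 relative to all members over the scalings. miR-21-5p, induced in fibrotic kidney, read 10.80 and 11.91 in DOCA-EVs and 12.14 and 12.23 in DOCA (−0.83 ± 0.34, adjusted p = 0.47). Both DOCA-EVs arrays were below both DOCA arrays, but they were far apart: replicate 1 lay at the level of UNX (11.03 and 11.17) and SHAM (10.91 and 11.00), and replicate 2 close to DOCA. The rows gave −1.33 and −0.32. Without DOCA-EVs replicate 2, when 1 array stands for the group and is assumed to vary like the others, miR-21-5p passed the threshold at −1.38 (adjusted p = 0.016, and 0.016 to 1.00 over all alternatives). Its opposite arm miR-21-3p showed the same order, at 5.23 and 5.92 in DOCA-EVs and 5.92 and 6.01 in DOCA (−0.40 ± 0.24, adjusted p = 0.78).

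The remaining fibrosis-associated miRNAs were weaker or overlapped. miR-34a-5p had −0.09 ± 0.12, miR-199a-3p −0.02 ± 0.31 and miR-214-3p, known for promoting renal fibrosis in mice, −0.24 ± 0.46. miR-132-3p and miR-212-3p, the pair with the seed AACAGUC induced by CREB signalling, had −0.34 ± 0.27 and −0.40 ± 0.39, with row values of −0.76 and 0.08 and of −1.11 and 0.31. For both, the negative mean came from row 1.

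Of 6 leukocyte miRNAs 5 had negative differences and miR-146a-5p had 0.00, with 0 past the threshold. The list's median was −0.31 (−0.39 in row 1 and −0.25 in row 2); it was positive with no scaling, and −0.31 to −0.12 relative to all members over the scalings. miR-142-3p, which is made by blood-derived cells, read 5.85 and 6.53 in DOCA-EVs and 7.20 and 6.71 in DOCA (−0.77 ± 0.27, adjusted p = 0.42), against 6.07 and 5.92 in UNX and 5.47 and 5.60 in SHAM. miR-223-3p, of myeloid cells, read 6.30 and 6.69 in DOCA-EVs and 6.72 and 7.14 in DOCA (−0.43 ± 0.21, adjusted p = 0.61). Neither overlapped between DOCA-EVs and DOCA; the rows gave −1.35 and −0.18 for miR-142-3p, so its difference lay mostly in row 1, and −0.42 and −0.45 for miR-223-3p. The summed normalized signal of the 6 miRNAs was 745 and 900.4 in DOCA-EVs and 928 and 997 in DOCA, against 656 on both arrays of UNX and 623 on both of SHAM.

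miR-146b-5p, a brake on Toll-like receptor signalling, read 4.56 and 6.05 in DOCA-EVs and 6.21 and 6.37 in DOCA (−0.98 ± 0.47, adjusted p = 0.60). It read lower in UNX (3.55 and 4.04) and SHAM (4.15 and 4.43), where no array was above background. As with miR-21-5p, DOCA-EVs replicate 1 was far below both DOCA arrays and replicate 2 close to them. Its relative miR-146a-5p, with the same seed GAGAACU, read 8.56 and 8.73 in DOCA-EVs and 8.65 and 8.63 in DOCA (0.00 ± 0.12). miR-155-5p, of activated macrophages and lymphocytes, had −0.18 ± 0.16 and miR-150-5p, of mature lymphocytes, −0.13 ± 0.18. The seventh marker, miR-142-5p, was detected on none of the 4 arrays.

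Among the 4 arrays of DOCA-EVs and DOCA, markers of red blood cells were brightest on DOCA replicate 1. miR-451-5p, of red blood cells, read 7.02 and 7.09 in DOCA-EVs and 8.59 and 6.74 in DOCA (−0.61 ± 0.55). On the linear scale it read 384 on DOCA replicate 1, and 107 to 136 on the other DOCA and DOCA-EVs arrays. UNX lay between these, at 305 and 222, as did SHAM, at 275 and 263. miR-144-3p read 2.36 and 3.23 in DOCA-EVs and 4.76 and 2.36 in DOCA, being detected on 1 of the 4 arrays, and miR-486 read 4.09 and 3.48 in DOCA-EVs and 4.49 and 2.36 in DOCA, being detected on 2. miR-144-5p was detected on none of the 4. miR-126a-3p, of endothelium, had 0.10 ± 0.16, and miR-143-3p and miR-145-5p, of smooth muscle, had −0.22 ± 0.15 and −0.01 ± 0.14. The muscle-enriched miR-206-3p and miR-499-5p had −0.00 ± 0.42 and −0.06 ± 0.41, and miR-128-3p, of the nervous system, was not above background on either DOCA array and has no fold here. The striated muscle miRNAs miR-1-3p and miR-133a-3p, the liver's miR-122-5p and the neuronal miR-124-3p were detected on none of the 4 arrays. The part of leukocyte and erythrocyte RNA in the other differences was not tested.

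**Figure D4:**
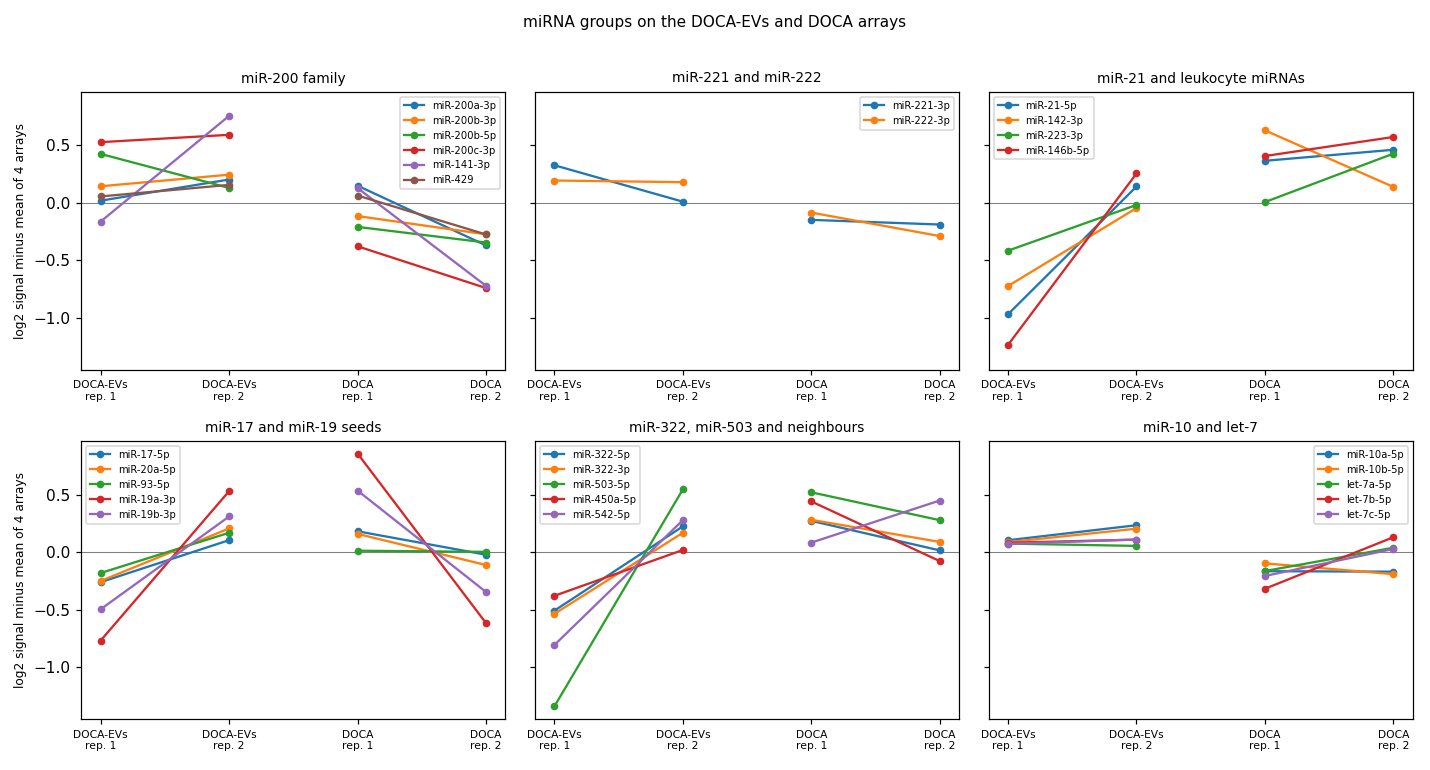
Log2 signal minus the mean of the 4 arrays (y axis) for miRNA groups on DOCA-EVs replicates 1 and 2 and DOCA replicates 1 and 2 (x axis), with a line joining the 2 arrays of a group for each miRNA. miR-21-5p, miR-142-3p and miR-146b-5p are lowest on DOCA-EVs replicate 1, and miR-503-5p likewise. The miR-19 pair is lowest on DOCA-EVs replicate 1 and highest on DOCA replicate 1.

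Apart from miR-142-3p, the 12 members with the smallest p among negative differences belonged to none of these cell type lists. miR-188-5p, which lies in an intron of the chloride channel gene Clcn5, read 4.79 and 4.80 in DOCA-EVs and 5.41 and 5.47 in DOCA (−0.64 ± 0.14, adjusted p = 0.15). Its neighbour miR-500-3p had −0.25 ± 0.13; a further neighbour, miR-532-5p, has no fold, since no DOCA array showed it over background. miR-296-5p read 4.39 and 4.23 in DOCA-EVs and 4.76 and 5.05 in DOCA (−0.60 ± 0.15, adjusted p = 0.19). The rows gave −0.62 and −0.67 for miR-188-5p, nearly the same value, and −0.37 and −0.82 for miR-296-5p, which was above background on 1 array of each group.

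miR-494-3p, of the imprinted Dlk1-Dio3 region, read 8.91 and 9.26 in DOCA-EVs and 9.62 and 9.81 in DOCA (−0.63 ± 0.18, adjusted p = 0.27). The other members from the list of that region, miR-329-3p and miR-770-3p, have no fold, since no DOCA array showed either over background. These 3 were all that the detection rule left of the 48 listed miRNAs on the array. The list is not complete: miR-667-3p, a neighbour of miR-494-3p and miR-329-3p in the genome, was also a member, with a difference of 0.13. miR-211-3p (−0.51 ± 0.16), miR-125a-3p (−0.56 ± 0.19), miR-483-5p (−0.44 ± 0.17), encoded within the insulin-like growth factor gene Igf2, and miR-1249 (−0.32 ± 0.12) were also lower on both DOCA-EVs arrays, with miR-125a-3p and miR-1249 above background on 1 array of each group; miR-483-5p and miR-1249 turned positive with no scaling. Of the 12 smallest p among negative differences, 9 kept their sign under all 6 scalings and 12 relative to the median of all members. The 12 positive ones kept theirs in both ways. Those that turned did so on unscaled arrays alone, where the members' median was 0.43. That upward shift could turn small negative values and no positive ones, so the counts do not compare the directions.

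Differences of 1 or more in size occurred in 6 members, among them miR-200c-3p and miR-31a-5p. miR-3584-5p had the most negative value, at 10.003 and 7.88 in DOCA-EVs and 10.67 and 10.71 in DOCA (−1.75 ± 0.87, adjusted p = 0.61), against 5.96 and 8.11 in UNX and 6.35 and 6.19 in SHAM. Its DOCA-EVs arrays lay far apart, with row differences of −0.66 and −2.83. miR-3473 read 10.43 and 9.65 in DOCA-EVs and 10.62 and 11.64 in DOCA (−1.09 ± 0.41), with −0.18 and −1.99 in the rows, and miR-6216 read 8.03 and 7.53 in DOCA-EVs and 8.66 and 9.11 in DOCA (−1.10 ± 0.27, adjusted p = 0.19), with −0.62 and −1.58. All 3 were lower on both DOCA-EVs arrays and most so in row 2, where dmr_3 was low on the arrays of both groups. miR-138-1-3p, at 6.55 and 4.45 in DOCA-EVs and 4.91 and 4.04 in DOCA, was above background on 1 array of each group and overlapped. A further miRNA with a one-sided pattern was miR-484, with −0.11 and −1.68 in the rows.

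Some related miRNAs were lower on DOCA-EVs replicate 1 than on DOCA replicate 1 without a like difference in row 2. In the cluster of miR-322, miR-503, miR-450a and miR-542, whose human counterparts miR-424 and miR-503 restrain the cell cycle, the rows gave −0.78 and 0.21 for miR-322-5p and −0.82 and 0.10 for miR-450a-5p. miR-503-5p and miR-542-5p of this cluster met the detection rule through DOCA alone, being detected on 1 DOCA-EVs array, so no count or median over the cluster is given. miR-503-5p read 3.35 and 5.24 in DOCA-EVs and 5.21 and 4.97 in DOCA, with row values of −1.86 and 0.27, and it passed the threshold at −1.74 without DOCA-EVs replicate 2, when the array with the lower of its DOCA-EVs values stood alone for that group (adjusted p = 0.016, and 0.016 to 1.00 over all alternatives). The miR-17 cluster and its paralogues, known for driving proliferation, had 7 negative members of 9 and a median of −0.09, at −0.41 in row 1 and 0.17 in row 2. miR-19a-3p and miR-19b-3p, the pair with the seed GUGCAAA, had −1.63 and 1.15 and −1.03 and 0.66 in the rows, and the 5 members with the seed AAAGUGC had a row 1 median of −0.41 and a row 2 median of 0.17. miR-19a-3p, detected on 1 DOCA array, was above background on 1 array of each group and miR-503-5p on 1 DOCA-EVs and both DOCA arrays. Within the miR-17 list miR-20a-5p had −0.05 ± 0.19, miR-92a-3p 0.15 ± 0.13 and miR-93-5p −0.01 ± 0.15, so means over both rows were small where the rows had opposite values; the miR-17 list's median was positive under 3 scalings, by the median of detected probes, by normexp with quantile normalization and without scaling.

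There were 22 seeds with at least 2 members, holding 62 miRNAs, and 7 with at least 3. Over the 22 seeds the median difference ran from −0.49 for GAGAACU, of miR-146a-5p and miR-146b-5p, to 0.36 for GCUACAU, of miR-221-3p and miR-222-3p. Among the 7, the medians ran from −0.13 for the miR-15 and miR-16 seed AGCAGCA, with 5 of 5 negative (their median was positive under 2 scalings, by the median of detected probes and without scaling), to 0.18 for the miR-30 seed GUAAACA, with 3 of 3 positive. The miR-181 seed ACAUUCA stood at 0.01, and the miR-196 seed AGGUAGU at 0.07. In 22 hairpins both arms were members, and in 15 of these both arms had the same sign. Arms of opposite sign included miR-125a, with miR-125a-5p at 0.12 ± 0.13 and miR-125a-3p at −0.56 ± 0.19, and miR-99b, with miR-99b-5p at −0.01 ± 0.19 and miR-99b-3p at 0.42 ± 0.20.

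**Figure D5:**
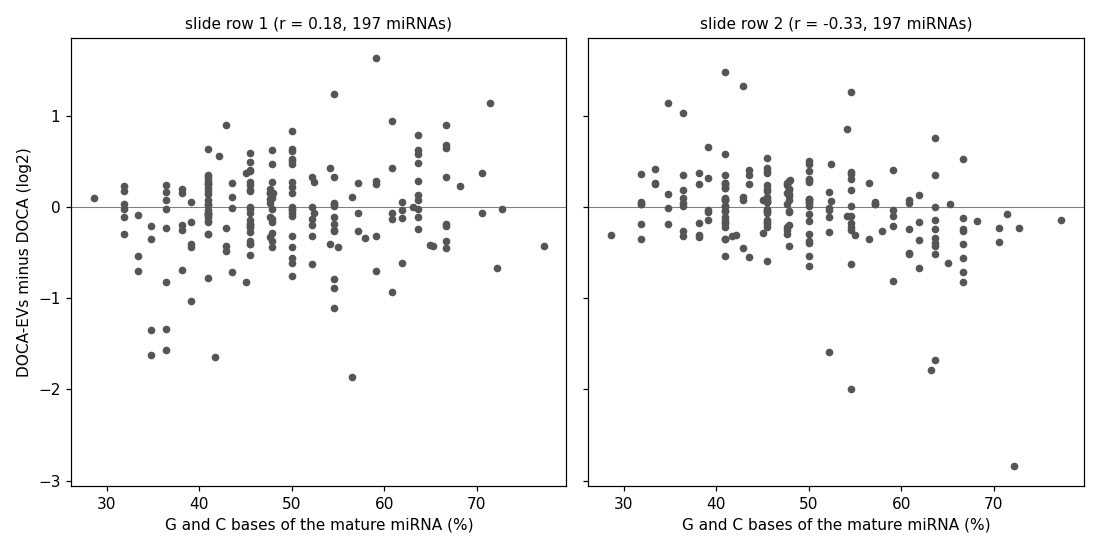
Difference between DOCA-EVs and DOCA (y axis, log2) against the percentage of G and C bases in the mature miRNA (x axis) for 197 miRNAs, in slide row 1 (left) and slide row 2 (right). The point cloud tilts upward in row 1 (r = 0.18) and downward in row 2 (r = −0.33).

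Base composition of the mature miRNA ran differently with the difference in the 2 rows. Over 197 miRNAs with a sequence, the percentage of G and C bases had a Pearson correlation of 0.18 with the row 1 difference, −0.33 with the row 2 difference and −0.10 with their mean, as a description of miRNAs that share arrays and labelling. The 32 miRNAs with 40% or less G and C had medians of −0.20 in row 1 and 0.04 in row 2. The 37 miRNAs with over 60% had −0.02 and −0.24, and 10 of these 37 were lower on both DOCA-EVs arrays, against 11.6% of all miRNAs tested. miR-3584-5p, with 72.2% G and C, is in the second set and miR-142-3p, with 34.8%, in the first. Whether hybridisation strength or base composition had a part in single differences was not tested.

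The choice of scaling moved the median of the members. With no scaling it was 0.43 and with the median of detected probes 0.13, whereas the other 4 settings gave −0.01 to 0.03. Of 117 members with at least 2 probes above background on all 4 arrays, 16 had probes that differed in sign. Replicates differed most for miR-3588, at 6.24 and 4.10 in DOCA-EVs and 6.85 and 4.74 in DOCA; miR-3558-5p, at 4.91 and 3.90 in DOCA-EVs and 4.48 and 3.03 in DOCA, was also uneven, whereas the bright miR-466b-3p had −0.09 ± 0.24. In all, a gap of over 1 between replicates occurred for 23 members in DOCA-EVs and 10 in DOCA.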

How the data were processed

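Renal cortex RNA (100 ng per array) was labelled with Cy3 and hybridised to 8 one-colour arrays on 1 slide. Per the file headers, the authors used Agilent Feature Extraction 11.5.1.1 (design 070154, protocol miRNA_1105_Oct12), and the deposited values give each spot's intensity after background subtraction, without scaling across arrays; the series table repeats them. The deposited flags for detection, outlying spots and signal above background are 0 or 1.

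Outlying spots were dropped, intensity was averaged per probe and divided by the array's 75th percentile over 271 probes detected on all arrays. Values under 2.57, the mean SD of the negative controls, were set to 2.57; probes were summed per miRNA and log2 was taken. limma 3.58.1 in R 4.3.3 fitted 1 mean per group over all 8 arrays to the 242 miRNAs detected on both arrays of a group, with 4 residual and 2.18 prior degrees of freedom; two-sided p-values were adjusted over all 242 by Benjamini-Hochberg, with a threshold of 0.05. The fit was tested on simulated data.

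The members, the lists and the alternatives were chosen with earlier results of these data known. Named are the 12 smallest p in each direction, the 10 highest mean levels, up to 4 members per list by level, the 5 widest replicate gaps per group, members of seed families, and whatever their p miR-31a-5p, miR-210-3p, miR-451-5p, miR-142-3p, miR-29b-3p, miR-200c-3p, miR-200b-3p, miR-192-5p and miR-21-5p; further miRNAs were named after their values were seen (miR-155-5p, miR-146b-5p, arms, pairs and neighbours of named miRNAs). A miRNA above background on no array of 1 group is given as a bound where that bound exceeds 1, and otherwise has no fold. For the bound, the dim group was set to the dimmest level above background, or its own where higher. Such a bound allows for background alone, and not for the spread between arrays or for other scalings. Arrays of the same number lay in 1 slide row, and their deviations from the group mean correlated in all 6 pairs of groups (r from 0.24 to 0.56, 0.31 for DOCA-EVs and DOCA). The number was therefore used as pairing for the row values and as a block in an alternative fit. The main fit, with its SE and p-values, has no block. The column for mean spot signal planned for normexp was not in the files used here, so normexp ran on the median spot signal. It added an offset of 50, which shrinks log2 differences of dim miRNAs and can set the end nearest 0 of a range over scalings. Neighbours were taken as hairpins within 10000 bases of each other in GRCr8; the file headers name rn4, so no positions are given.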

Additional observations from a re-analysis of the deposited data

How the results depend on the processing

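The count of members past the threshold was 0 in the main setting and in these alternatives: all probes in the 75th percentile, no scaling, the software's total signal, a doubled floor, outlying spots kept, miRNAs detected on all 8 arrays, only the 4 arrays of DOCA-EVs and DOCA (6 at an unadjusted p under 0.05), and array weights (11). It was 4 with the median of the detected probes (miR-200c-3p, miR-210-3p, miR-31a-5p and miR-326-3p), 2 with quantile normalization (miR-200c-3p and miR-31a-5p), 5 with normexp and quantile normalization (miR-210-3p, miR-31a-5p, miR-200b-3p, miR-10a-5p and miR-10b-5p) and 2 with no filter (miR-326-3p and miR-30c-2-3p), all higher in DOCA-EVs. Without both weakly hybridised arrays it was 4, all lower (miR-142-3p, miR-21-5p, miR-503-5p and miR-19a-3p); this sets 1 array against 1, whose spread is assumed to be that of UNX and SHAM. Leaving out 1 array at a time gave 0 to 2, the 2 being miR-21-5p and miR-503-5p, lower without DOCA-EVs replicate 2, with the lone array assumed to vary like the other groups. With the replicate block 0 members passed (smallest adjusted p = 0.050, 28 at an unadjusted p under 0.05), so the pairing changed no call. Of 1742 values of 73 named members under 24 alternatives, 1566 kept sign and, where a p-value existed, side of the threshold. The single slide rows, among these alternatives, have no p-value and were judged by sign alone. Of the other values, 19 passed the threshold and 157 changed sign without a call, among 42 members, and 31 members never changed sign. The cause of these shifts was not tested. The 2 arrays per group limit the precision, and 161 of 219 members were above background on all 4 arrays.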
